A study of Mus musculus with 10 samples.

Results

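The genes described here are 36 mouse genes of amino acid, one-carbon and ATF4 biology, named as a fixed list of symbols and kept where they had at least 10 reads over the 10 libraries of the study. All 36 of the 36 listed genes met that minimum, out of 31053 genes in the count tables, of which 14581 had as many reads. All 36 also passed the filter on low counts and were tested among 11215 genes. The cells were E14 mouse embryonic stem (ES) cells, a line derived from the blastocyst, all stably transfected with a doxycycline (DOX)-inducible Esrrb construct. Esrrb encodes an orphan nuclear receptor that helps to hold ES cells in the naive state. The first group was kept for 96 h in N2B27 medium with Doxycycline after 2iL was withdrawn (96 h DOX, 3 libraries). Cells of the second were kept for 96 h in N2B27 medium after 2iL withdrawal without Doxycycline (96 h no DOX, 3 libraries). The third was cultured in N2B27 medium with 2iL and without Doxycycline (2iL, 4 libraries). Here 2iL stands for 3 uM CHIR99021, a GSK3 inhibitor, 1 uM PD0325901, a MEK inhibitor, and the cytokine LIF. The N2B27 medium of all groups was supplemented with L-Glutamine. The labels do not say whether the transfected line was 1 clone, and give no Doxycycline dose. Every group carried the construct, and the comparison of DOX with no DOX is the one that bears on its induction. The titles name 2 experiments, but separate cultures are named nowhere in the labels, so p-values measure the spread between these libraries.

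ATF4 is a transcription factor whose translation rises when eIF2 is phosphorylated, as when amino acids are scarce, in the integrated stress response. Its targets include amino acid transporters, the asparagine and serine synthesis enzymes and the factors that later damp the response. One-carbon metabolism passes single carbons from serine and glycine through folate to nucleotide synthesis and to the methionine cycle. Mouse ES cells are known for making glycine from threonine through threonine dehydrogenase (Tdh).

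Polyadenylated RNA was sequenced from transcript 3′ ends. Read counts are compared here for 1 gene between libraries, not between genes. Reads in genes ranged from 1253620 in the library 96 h DOX exp1_2 to 4715450 in a no DOX library. Values below are counts per 1000000 reads (CPM) scaled by the trimmed mean of M-values (TMM), given as experiment 1 library 1, experiment 1 library 2 and then experiment 2. The count of Esrrb itself, in CPM of library totals, was 12.98 to 29.2 with DOX and 13.4 to 31.3 without DOX, against 218 to 344 in 2iL. The sources used here do not say whether a construct transcript ends in the counted 3′ region, so this count does not check the DOX label. The summed CPM of 8 naive pluripotency markers was 416 to 501 with DOX and 151 to 170 without DOX, against 1893 to 2085 in 2iL. Over 9 extraembryonic endoderm markers, Gata6 and Sox17 among them, it was 299 to 542 with DOX and 21.5 to 31.8 without DOX, against 18.2 to 27.4 in 2iL, and Sox7 had 0 reads in the no DOX and 2iL libraries. Over 4 neural markers it was 48.7 to 97.3 with DOX and 274 to 421 without DOX, against 32.1 to 43.6 in 2iL. Over 4 formative epiblast markers the sum was 1094 to 1717 with DOX and 2207 to 2495 without DOX, against 184 to 226 in 2iL. Pou5f1 and Sox2 together gave 310 to 404 with DOX and 178 to 266 without DOX, against 273 to 442 in 2iL. In bulk RNA, fewer cells of a type and less RNA per cell cannot be told apart.

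The library 96 h DOX exp1_2 stood apart from the rest. Its 7 fibroblast markers summed to 2098 CPM, against 10.6 and 22.9 CPM in the other DOX libraries, 16.8 to 19.5 CPM without DOX and 1.82 to 8.67 CPM in 2iL. Col1a1, Col1a2, Col3a1, Dcn and Postn were highest in it, Postn had 75 reads there and 0 in every other library, and Lum and Thy1 were not highest in it. Without this library, the marker sums with DOX were 299 to 333.5 CPM for extraembryonic endoderm and 79.1 to 97.3 CPM for neural markers. They were 1429 to 1717 CPM for formative epiblast markers and 310 to 363 CPM for Pou5f1 and Sox2, and the naive range was the same. Of the reads in this library, 7.48% came from ribosomal protein genes (14.02% to 17.7% in the others), 3.10% from the protein genes of the mitochondrial genome (0.559% to 1.27% in the others) and 14.8% from Gm42418 alone (3.39% to 6.61% in the others). Genes called with DOX are therefore given with and without this library, and its part in the differences below was otherwise not tested.

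Of the 36 genes, 30 have an entry among RefSeq promoters (build GRCm38.p6, 250 bases before to 50 after the start); Tdh, Slc7a3, Slc1a5, Cth, Eif4ebp1 and Slc7a5 have none there. The core of the element that ATF4 binds with a C/EBP partner, searched as TGATGNAA on both strands, is in the promoters of 9 of those 30 genes (30%), against 1219 of 27025 genes with a promoter (4.51%). The 9 are Atf3, Chac1, Trib3, Slc7a11, Asns, Nupr1, Slc1a4, Pycr1 and Vldlr. The list itself was drawn partly from ATF4 biology, so a higher share than over all genes is no independent finding. The Esrrb element TCAAGGTCA is in the promoter of 0 of the 30, against 126 of the 27025 genes (0.466%). A match is a run of letters, not a measured site. The promoters below belong to the genes among the 9 whose counts passed a test in this study, and they are shown because the same core stands before genes that moved in opposite directions. Capitals mark the core, read on the coding strand in Asns and as its reverse complement in Slc1a4 and Nupr1. Its first base lies 23 bases before the start of Asns (chr6:7693160-7693459, minus strand), 4 bases before that of Slc1a4 (chr11:20332664-20332963, minus strand) and 110 bases before that of Nupr1 (chr7:126625421-126625720, minus strand).
Asns: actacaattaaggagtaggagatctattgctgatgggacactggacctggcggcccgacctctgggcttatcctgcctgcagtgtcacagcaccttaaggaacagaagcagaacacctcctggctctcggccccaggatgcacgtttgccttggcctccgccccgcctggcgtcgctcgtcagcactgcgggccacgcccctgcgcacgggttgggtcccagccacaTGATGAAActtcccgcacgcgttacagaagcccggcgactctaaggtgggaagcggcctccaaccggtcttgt
Slc1a4: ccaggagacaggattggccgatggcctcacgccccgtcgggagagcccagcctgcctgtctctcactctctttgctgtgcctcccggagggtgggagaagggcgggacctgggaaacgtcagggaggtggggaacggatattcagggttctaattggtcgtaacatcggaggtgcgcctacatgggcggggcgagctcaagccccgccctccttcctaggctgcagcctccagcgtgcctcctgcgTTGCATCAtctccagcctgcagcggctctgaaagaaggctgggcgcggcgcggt
Nupr1: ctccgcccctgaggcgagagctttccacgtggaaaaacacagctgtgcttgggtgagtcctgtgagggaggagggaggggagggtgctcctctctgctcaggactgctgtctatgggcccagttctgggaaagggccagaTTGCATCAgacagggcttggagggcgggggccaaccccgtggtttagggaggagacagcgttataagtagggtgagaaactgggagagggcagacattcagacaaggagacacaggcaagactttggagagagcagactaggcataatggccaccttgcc

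Calls are genes whose p-value in the quasi-likelihood test of edgeR, after Benjamini-Hochberg adjustment over the 11215 genes tested, was below 0.05; the adjusted p-values below are of that kind. With DOX against 2iL, 11 of the 36 genes were called (30.6%), beside 16.7% of all genes tested. Of these, 3 were higher, where 9.84% of all genes were, and 8 were lower, where 6.83% of all genes were. Without DOX against 2iL, 11 of the 36 were called (30.6%), beside 20.4% of all genes tested. Here 5 were higher, where 11.5% of all genes were, and 6 were lower, where 8.90% of all genes were. Both comparisons use the same 4 libraries of 2iL. The 36 genes were chosen with earlier results of these data known, so shares above those of all genes are no independent finding. With DOX against no DOX, 0 of the 36 genes were called, where 3.10% of all genes were (2.16% higher and 0.945% lower). In that comparison 6 of the 36 (16.7%) fell below an edgeR p of 0.05 before adjustment, beside 1685 of all genes (15%), and DESeq2 and limma-voom also called 0. The median log2 fold change of the 36 was 0.00 with DOX against 2iL, 0.01 without DOX against 2iL and -0.10 with DOX against no DOX, beside 0.02, 0.00 and -0.02 over all genes tested. In all, 14 of the 36 genes passed in at least 1 comparison. Within experiment 1 alone, with 2 libraries a group, the calls left were Cebpb, Mthfd2, Tdh and Gcat with DOX against 2iL and Cebpb, Slc1a4, Tdh and Asns without DOX against 2iL, and every gene called over all libraries kept its sign within each experiment. Without the library 96 h DOX exp1_2, 9 of the 11 genes stayed called with DOX against 2iL, Amt and Ahcy being lost, 13 were called without DOX against 2iL, Shmt2 and Gcat being added, and 0 were called with DOX against no DOX.

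**Figure D1:**
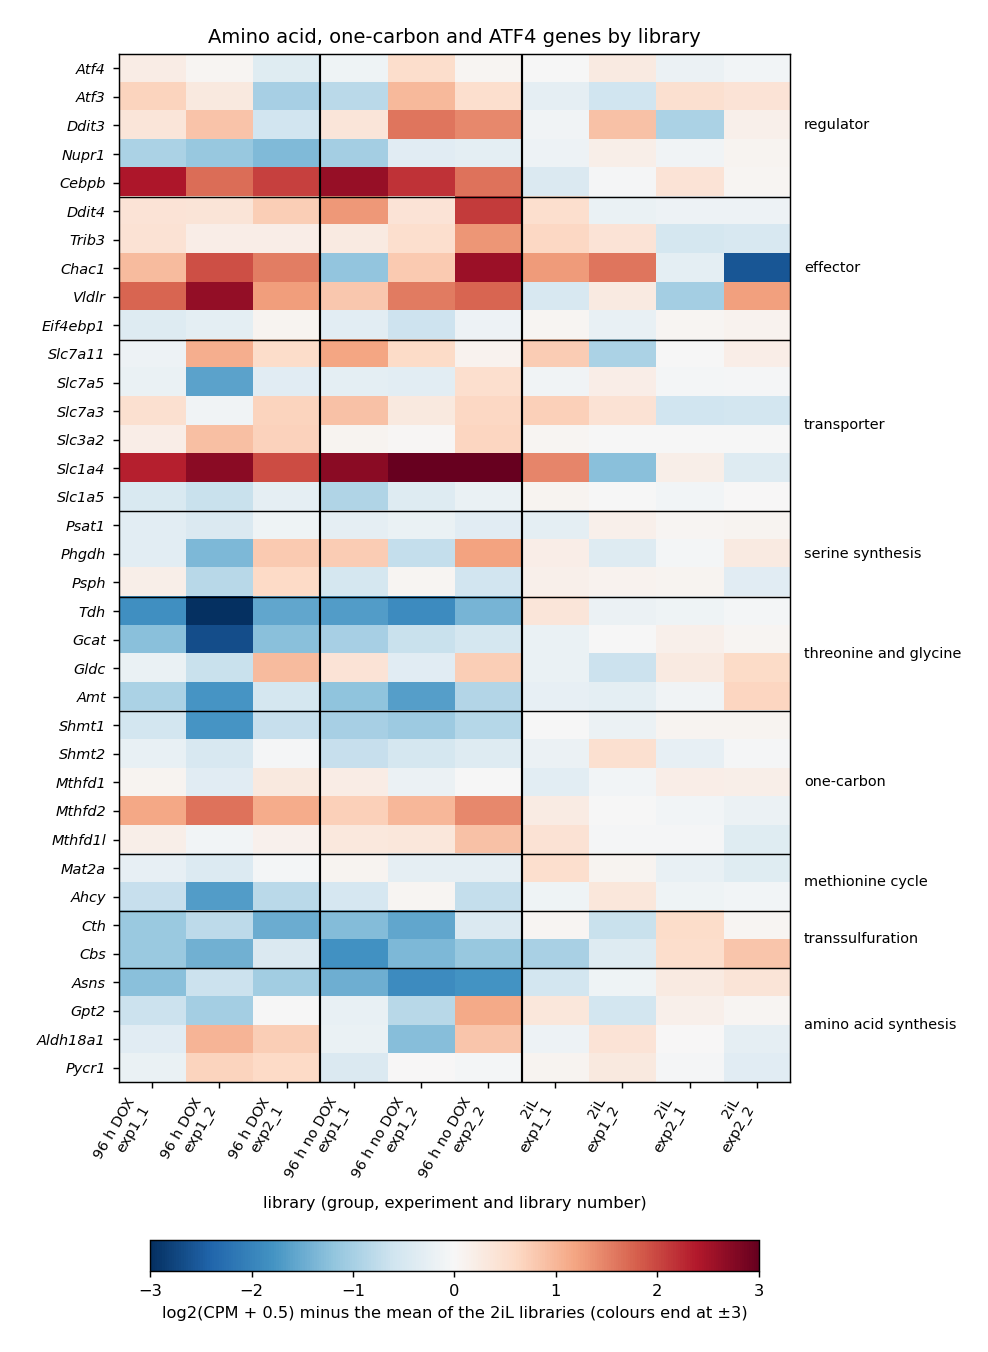
Each row is a gene, grouped by role, and each column a library (96 h DOX, 96 h no DOX, then 2iL); colour gives log2(CPM + 0.5) minus the mean of the 2iL libraries. Slc1a4, Cebpb and Mthfd2 are red in all 96 h libraries, and Tdh, Amt, Shmt1 and Asns are blue in all of them, while Atf4 stays near white.

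**Figure D2:**
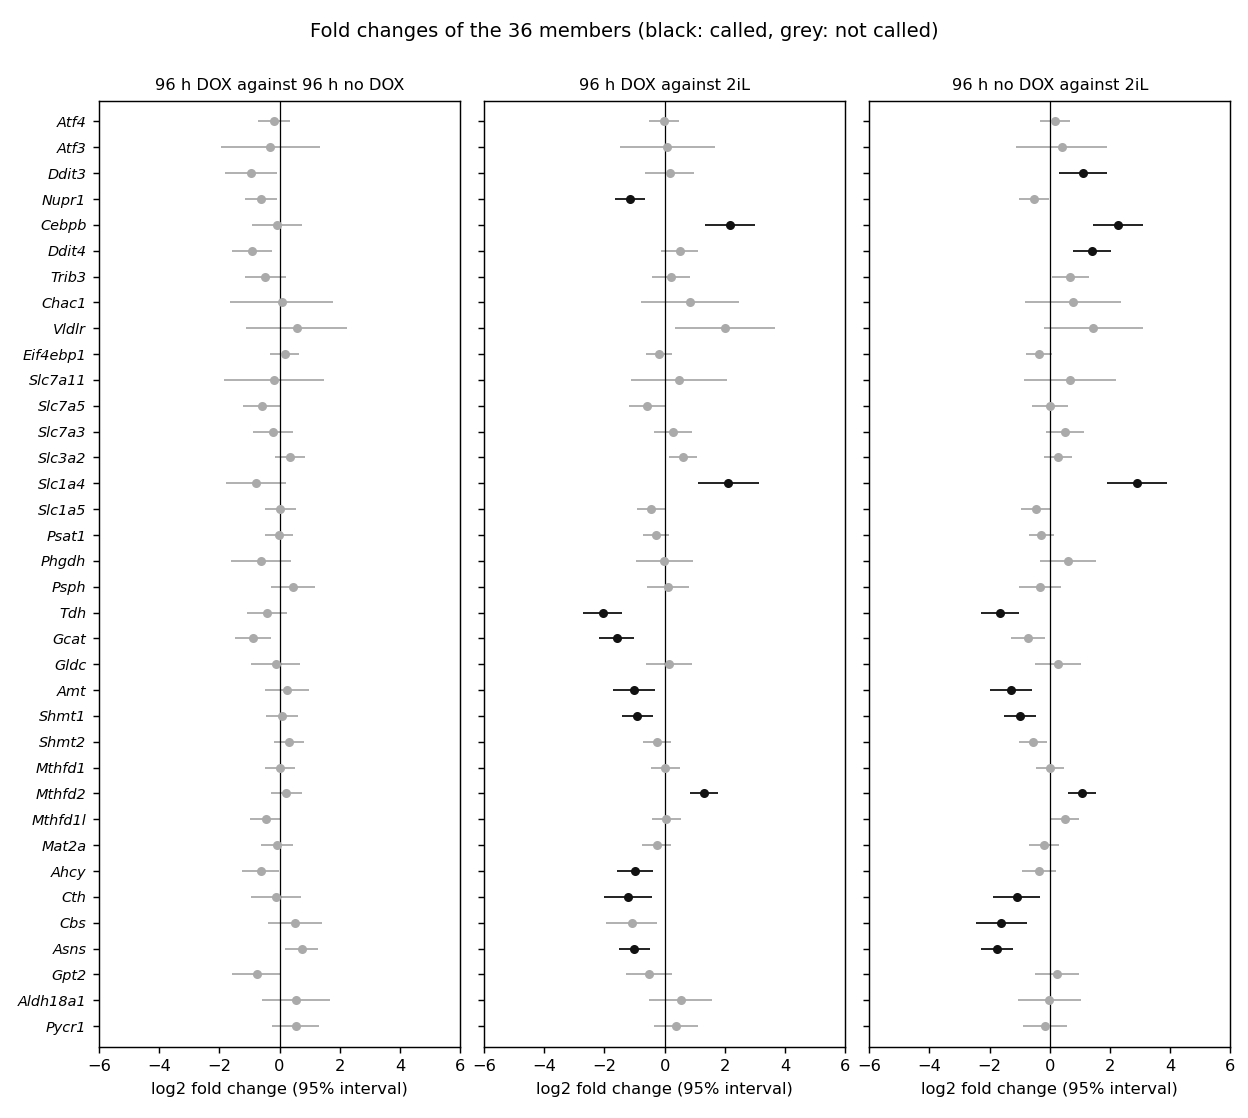
Points are log2 fold changes of the 36 genes with 95% intervals derived from the edgeR test, one panel per comparison, black where the adjusted p was below 0.05. There is no black point for DOX against no DOX, where the intervals of Asns and Gcat lie on opposite sides of 0.

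Among the transcription factors, Cebpb was higher at 96 h, Nupr1 was called lower with DOX against 2iL, and Atf4 itself was called in no comparison. Atf4 had 947, 846 and 627 CPM with DOX and 744, 1161 and 850.2 CPM without DOX, against 808, 974, 722 and 762 CPM in 2iL. Its groups overlapped throughout, with log2 fold changes of -0.02 with DOX against 2iL (interval -0.51 to 0.47) and 0.17 without DOX against 2iL (interval -0.32 to 0.66). ATF4 is controlled mainly in translation, which read counts do not measure.

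Cebpb, which encodes a bZIP factor that pairs with ATF4, had 24.95, 14.7 and 19.1 CPM with DOX and 28.5, 20.7 and 14.1 CPM without DOX, against 2.997, 4.09, 5.84 and 4.44 CPM in 2iL. Every 96 h library was above every 2iL library, and the DOX and no DOX libraries overlapped. Cebpb gave a log2 fold change of 2.18 ± 0.40 (SE; adjusted p = 5.81e-04) with DOX against 2iL, and 2.33 (adjusted p = 4.43e-04) without the library 96 h DOX exp1_2; it was 2.505 within experiment 1 and 1.81 within experiment 2. Without DOX against 2iL it was 2.27 ± 0.39 (SE; adjusted p = 2.36e-04), with 2.76 within experiment 1 (adjusted p = 0.00286) and 1.38 within experiment 2. A gene on the opposite strand, Tmem189, overlaps Cebpb, and the sources used here do not give the strand setting of the counting.

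Nupr1, a small chromatin-associated stress factor, had 53.9, 47.9 and 41.5 CPM with DOX and 51.7, 83.7 and 85.8 CPM without DOX, against 94.2, 119, 98.6 and 111 CPM in 2iL. All 96 h libraries lay below all 2iL libraries, and the no DOX libraries spread from the DOX range up to near the lowest 2iL value. Nupr1 fell with DOX against 2iL, at a log2 fold change of -1.15 ± 0.24 (SE; adjusted p = 0.00230), and gave -1.15 (adjusted p = 0.00365) without 96 h DOX exp1_2. It was -1.05 within experiment 1 (adjusted p = 0.0875) and -1.33 within experiment 2. It did not pass without DOX against 2iL (log2 fold change -0.52 ± 0.23 (SE; adjusted p = 0.131)) or with DOX against no DOX (-0.63 ± 0.25 (SE; adjusted p = 0.227)).

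Ddit3, encoding the factor CHOP of the unfolded protein response, had 35.9, 50.1 and 18.4 CPM with DOX and 35.8, 84.97 and 76.1 CPM without DOX, against 25.6, 51.5, 14.1 and 30.7 CPM in 2iL. The groups overlapped in every comparison, and 2 of the 3 no DOX libraries were above all others. Ddit3 was called higher without DOX against 2iL, at 1.11 ± 0.38 (SE; adjusted p = 0.0457), and lost that call when any of 6 of the 10 libraries was left out, with a highest adjusted p of 0.188. Those 6 were 2iL exp1_1, 2iL exp2_1, 2iL exp2_2, 96 h no DOX exp1_2, 96 h no DOX exp2_2 and 96 h DOX exp1_1. Its values were 0.63 within experiment 1 (adjusted p = 0.469) and 1.84 within experiment 2. Another annotated Ddit3 entry and, on the opposite strand, Mars overlap this locus. Atf3, an immediate stress-response factor, was low in every library (1.23 to 4.99 CPM with DOX, 1.47 to 6.25 CPM without DOX and 1.75 to 4.30 CPM in 2iL) and passed in no comparison.

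Among the effectors downstream of ATF4, Ddit4 passed a test and the other 4 did not, and the size of its change depended on 1 library. Ddit4, an inhibitor of mTORC1 signalling also known as Redd1, had 120.01, 117 and 149 CPM with DOX and 224, 119 and 386 CPM without DOX, against 127, 78.7, 81.4 and 80.2 CPM in 2iL. The no DOX libraries exp1_1 and exp2_2 were the highest of all, and exp1_2 was level with the DOX libraries and below 1 of the 2iL libraries. Ddit4 rose without DOX against 2iL by a log2 fold change of 1.40 ± 0.30 (SE; adjusted p = 0.00160), with 0.73 within experiment 1 (adjusted p = 0.268) and 2.25 within experiment 2. Leaving out 96 h no DOX exp2_2 gave 0.90 (adjusted p = 0.0314), still a call. It did not pass with DOX against 2iL (log2 fold change 0.49 ± 0.30 (SE; adjusted p = 0.286)) or with DOX against no DOX (-0.91 ± 0.32 (SE; adjusted p = 0.150)).

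Trib3, a pseudokinase that restrains ATF4 activity, and Chac1, a glutathione-degrading enzyme, shared their highest library with Ddit4. Trib3 had 69.4, 58.9 and 58.7 CPM with DOX and 61.4, 71.8 and 129 CPM without DOX, against 77.9, 67.6, 35.01 and 36.2 CPM in 2iL. Chac1 had 9.51, 19.2 and 14.4 CPM with DOX and 1.76, 8.41 and 30.3 CPM without DOX, against 11.99, 15.2, 3.69 and 0.370 CPM in 2iL. Both genes peaked in 96 h no DOX exp2_2, and in 2iL both were higher in experiment 1 than in experiment 2. Neither passed in any comparison. The log2 difference of Chac1 without DOX against 2iL was -1.39 within experiment 1 and 4.01 within experiment 2, and that of Trib3 was -0.14 within experiment 1 and 1.84 within experiment 2.

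Vldlr, a lipoprotein receptor that ATF4 can induce, was low everywhere (3.38 to 9.58 CPM with DOX, 2.35 to 4.99 CPM without DOX and 0.307 to 3.33 CPM in 2iL). Its log2 fold change with DOX against 2iL was 2.00 ± 0.80 (SE; adjusted p = 0.0926), which did not pass. Vldlr passed there with DESeq2 (adjusted p = 0.0454) and without 2iL exp2_2 (adjusted p = 0.0405). It also passed with a replicate block of experiment with library number (adjusted p = 0.0450). Eif4ebp1, a repressor of cap-dependent translation, ranged over 222 to 309 CPM with DOX, 187 to 263 CPM without DOX and 248 to 313 CPM in 2iL and passed in no comparison.

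Of the 6 amino acid transporters, Slc1a4 rose at 96 h and the other 5 passed in no comparison. Slc1a4, the neutral amino acid transporter ASCT1, which carries serine and alanine, had 19.7, 25.8 and 15.1 CPM with DOX and 25.5, 34.7 and 41.7 CPM without DOX, against 10.7, 1.17, 3.99 and 2.59 CPM in 2iL. Every 96 h library exceeded every 2iL library, and the 2iL libraries were low and uneven, with exp1_1 the highest. Slc1a4 gave a log2 fold change of 2.88 ± 0.48 (SE; adjusted p = 1.57e-04) without DOX against 2iL, with 2.36 within experiment 1 (adjusted p = 0.0258) and 3.50 within experiment 2. With DOX against 2iL it gave 2.11 ± 0.49 (SE; adjusted p = 0.00473), and 1.92 (adjusted p = 0.0137) without 96 h DOX exp1_2; it was 1.96 within experiment 1 and 2.06 within experiment 2. Its DOX values lay mostly below its no DOX values but overlapped them, at a log2 fold change of -0.77 ± 0.48 (SE; adjusted p = 0.477) that did not pass.

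Slc3a2, the heavy chain CD98 that several amino acid exchangers need at the membrane, had 129, 211 and 183 CPM with DOX and 120.1, 116 and 176 CPM without DOX, against 117, 113, 111 and 112 CPM in 2iL. The 2iL libraries were nearly level, the DOX libraries were all above them, and the difference did not pass (log2 fold change 0.62 ± 0.22 (SE; adjusted p = 0.0642)). Slc3a2 passed there with DESeq2 (adjusted p = 0.0418), without TMM (adjusted p = 0.0201) and without 96 h DOX exp1_1 (adjusted p = 0.0255). Slc7a5, the large neutral amino acid exchanger LAT1 that pairs with Slc3a2, ranged over 35.4 to 94.1 CPM with DOX, 86.9 to 152 CPM without DOX and 100.2 to 125 CPM in 2iL. The lowest of these was the library 96 h DOX exp1_2. Slc1a5, the glutamine carrier ASCT2, ranged over 47.1 to 62.4 CPM with DOX, 39.9 to 64.6 CPM without DOX and 70.3 to 79.6 CPM in 2iL. Slc7a3, a carrier of cationic amino acids, gave 67.04 to 115 CPM with DOX, 88.6 to 132 CPM without DOX and 46.99 to 118 CPM in 2iL. The cystine exchanger Slc7a11 was near the limit of detection, at 1.90 to 5.16 CPM with DOX, 2.35 to 5.58 CPM without DOX and 0.877 to 3.996 CPM in 2iL.

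The 3 enzymes that make serine from a glycolytic intermediate passed in no comparison. Psat1, the transaminase of that route, had 234, 217 and 268 CPM with DOX and 241, 256 and 233 CPM without DOX, against 238, 323, 306 and 312 CPM in 2iL, with overlap between all groups. Its interval was -0.47 to 0.43 on the log2 scale for DOX against no DOX. Phgdh, the first enzyme of the route, ranged over 6.63 to 30.7 CPM with DOX, 10.6 to 41.7 CPM without DOX and 13.5 to 21.4 CPM in 2iL, and Psph, its phosphatase, over 14.7 to 40.6 CPM with DOX, 17.6 to 27.8 CPM without DOX and 21.1 to 29.6 CPM in 2iL. Phgdh shares near-identical 3′ sequence with 13 other annotated genes, so its counts are uncertain.

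Of the 4 threonine and glycine genes, 3 were called lower with DOX against 2iL (Tdh, Gcat and Amt) and 2 without DOX against 2iL (Tdh and Amt). Tdh, the mitochondrial threonine dehydrogenase, had 217, 81.8 and 266 CPM with DOX and 245, 212 and 299 CPM without DOX, against 1000.1, 696, 719 and 749 CPM in 2iL. Every 96 h library was below every 2iL library, and 96 h DOX exp1_2 was the lowest of all. Tdh gave a log2 fold change of -2.06 ± 0.31 (SE; adjusted p = 9.12e-05) with DOX against 2iL, -1.71 (adjusted p = 1.55e-05) without that library; it was -2.48 within experiment 1 and -1.46 within experiment 2. Without DOX against 2iL it was -1.65 ± 0.31 (SE; adjusted p = 4.92e-04), with -1.90 within experiment 1 (adjusted p = 0.00719) and -1.29 within experiment 2.

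Gcat, the ligase that turns the product of Tdh into glycine and acetyl-CoA, had 132, 49.4 and 132 CPM with DOX and 158, 200.3 and 221 CPM without DOX, against 278, 316, 349.5 and 328 CPM in 2iL. The 3 groups did not overlap, with DOX lowest, no DOX between and 2iL highest. Another annotated Gcat entry overlaps this locus on the same strand. Gcat fell with DOX against 2iL, at a log2 fold change of -1.59 ± 0.28 (SE; adjusted p = 4.31e-04), and gave -1.27 (adjusted p = 1.85e-04) without 96 h DOX exp1_2; it was -1.68 within experiment 1 and -1.36 within experiment 2. Without DOX against 2iL it gave -0.72 ± 0.27 (SE; adjusted p = 0.0661), which did not pass, although it passed under 5 other settings. Its adjusted p was 0.00441 when that DOX library was left out of the shared estimate of spread, 0.00776 with only the 2 groups fitted, 0.0318 with no filter on low counts, 0.0440 with DESeq2 and 0.0479 with limma-voom. With DOX against no DOX it gave -0.87 ± 0.29 (SE; adjusted p = 0.124), the lowest p of the 36 genes in that comparison, and -0.55 (adjusted p = 0.249) without 96 h DOX exp1_2.

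In the glycine cleavage system, which breaks glycine down and charges folate, Amt was called and Gldc was not. Amt, its aminomethyltransferase, had 27.3, 15.5 and 37.2 CPM with DOX and 22.9, 16.8 and 28.8 CPM without DOX, against 45.3, 43.3, 49.8 and 84.3 CPM in 2iL. All 96 h values lay below all 2iL values. Amt gave a log2 fold change of -1.29 ± 0.33 (SE; adjusted p = 0.00763) without DOX against 2iL, with -1.17 within experiment 1 and -1.16 within experiment 2. With DOX against 2iL it gave -1.03 ± 0.33 (SE; adjusted p = 0.0374), and that call was lost on leaving out 96 h DOX exp1_1, 96 h DOX exp1_2 (-0.79 (adjusted p = 0.122)), 2iL exp2_1 or 2iL exp2_2. With DOX it was -1.002 within experiment 1 and -0.79 within experiment 2. Gldc, the decarboxylase of the same system, ranged over 23.6 to 72.8 CPM with DOX, 29.8 to 63.2 CPM without DOX and 23.98 to 55.8 CPM in 2iL and passed in no comparison.

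Of the 5 folate enzymes, Mthfd2 rose and Shmt1 fell in both comparisons with 2iL, and the other 3 passed in none. Mthfd2, the mitochondrial methylenetetrahydrofolate dehydrogenase, had 239.6, 330.04 and 230.5 CPM with DOX and 176, 215 and 289.97 CPM without DOX, against 128, 107, 102 and 95 CPM in 2iL. All 96 h libraries were above all 2iL libraries, and 96 h DOX exp1_2, which carried the fibroblast markers, was the highest. Mthfd2 gave a log2 fold change of 1.30 ± 0.23 (SE; adjusted p = 3.57e-04) with DOX against 2iL, and 1.12 (adjusted p = 6.95e-04) without that library; it was 1.29 within experiment 1 and 1.23 within experiment 2. Without DOX against 2iL it was 1.07 ± 0.22 (SE; adjusted p = 0.00149), with 0.72 within experiment 1 (adjusted p = 0.209) and 1.56 within experiment 2. Gm43890 on the same strand overlaps Mthfd2.

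Shmt1, the cytosolic serine hydroxymethyltransferase, had 205, 88.4 and 186 CPM with DOX and 152, 139.96 and 165 CPM without DOX, against 300.1, 268, 319 and 319 CPM in 2iL. Its 96 h libraries were all below its 2iL libraries, and 96 h DOX exp1_2 was again the lowest. Shmt1 gave a log2 fold change of -0.90 ± 0.25 (SE; adjusted p = 0.0155) with DOX against 2iL, and -0.63 (adjusted p = 0.0338) without that library; it was -0.93 within experiment 1 and -0.77 within experiment 2. Without DOX against 2iL it was -0.99 ± 0.25 (SE; adjusted p = 0.00666), with -0.98 within experiment 1 (adjusted p = 0.120) and -0.95 within experiment 2. Smcr8 on the opposite strand overlaps Shmt1.

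The mitochondrial counterpart Shmt2 gave 111 to 153 CPM with DOX, 96.9 to 119 CPM without DOX and 132 to 217 CPM in 2iL, with a log2 fold change of -0.56 ± 0.23 (SE; adjusted p = 0.0894) without DOX against 2iL that did not pass. Mthfd1, the trifunctional cytosolic enzyme, ranged over 71.5 to 111 CPM with DOX, 79.8 to 106 CPM without DOX and 73.3 to 104 CPM in 2iL. Mthfd1l, the mitochondrial formate-releasing synthetase, ranged over 108 to 128 CPM with DOX, 142 to 209 CPM without DOX and 88.3 to 155 CPM in 2iL. The DOX libraries of Mthfd1l lay below its no DOX libraries without overlap, at a log2 fold change of -0.45 ± 0.25 (SE; adjusted p = 0.405) that did not pass.

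In the methionine cycle Ahcy was called lower with DOX against 2iL, and Mat2a passed in no comparison. Ahcy, which clears S-adenosylhomocysteine, had 40.9, 20.6 and 37.8 CPM with DOX and 46.7, 69.9 and 40.2 CPM without DOX, against 60.6, 84.8, 60.5 and 63.2 CPM in 2iL. The DOX libraries were below all 2iL libraries, and the no DOX libraries overlapped both groups. Ahcy gave a log2 fold change of -0.99 ± 0.28 (SE; adjusted p = 0.0192) with DOX against 2iL, a call that was lost without 96 h DOX exp1_2 (-0.78 (adjusted p = 0.0664)) and without 2iL exp1_2. Its log2 fold change with DOX against 2iL was -1.19 within experiment 1 and -0.70 within experiment 2. With DOX against no DOX Ahcy gave -0.63 ± 0.30 (SE; adjusted p = 0.319), which did not pass. Ahcy shares near-identical 3′ sequence with 3 other annotated genes. Mat2a, the enzyme that makes S-adenosylmethionine, had 449.6, 404 and 513 CPM with DOX and 562, 443 and 445 CPM without DOX, against 759, 567, 458 and 416 CPM in 2iL, with 2iL higher in experiment 1 than in experiment 2.

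Both genes of transsulfuration, the route from homocysteine to cysteine, were called lower without DOX against 2iL. Cbs, its first enzyme, had 14.97, 11.8 and 24.6 CPM with DOX and 9.10, 12.7 and 14.7 CPM without DOX, against 16.7, 25.1, 48.2 and 59.1 CPM in 2iL. The no DOX libraries were below all 2iL libraries, and the 2iL libraries of experiment 2 were above those of experiment 1. Cbs gave a log2 fold change of -1.61 ± 0.41 (SE; adjusted p = 0.00741) without DOX against 2iL, with -0.94 within experiment 1 (adjusted p = 0.276) and -1.83 within experiment 2. With DOX against 2iL it gave -1.09 ± 0.41 (SE; adjusted p = 0.0714), which did not pass. There it passed with no filter on low counts (adjusted p = 0.0220). It also passed without 2iL exp1_1 (adjusted p = 0.0255) and without 96 h DOX exp2_1 (adjusted p = 0.0473). Cbs shares near-identical 3′ sequence with 3 other annotated genes.

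Cth, the second enzyme of the route, had 14.02, 17.7 and 10.8 CPM with DOX and 12.3, 10.1 and 22.9 CPM without DOX, against 32.3, 19.3, 45.8 and 32.5 CPM in 2iL. The DOX libraries lay below all 2iL libraries, and the no DOX library exp2_2 overlapped the lowest 2iL library. Gm43314 on the same strand overlaps Cth. Cth was called lower in both comparisons with 2iL, at -1.22 ± 0.38 (SE; adjusted p = 0.0310) with DOX (-1.38 (adjusted p = 0.0294) without 96 h DOX exp1_2) and -1.11 ± 0.37 (SE; adjusted p = 0.0371) without DOX. Each call was lost on leaving out any of 5 libraries, with a highest adjusted p of 0.125 with DOX and 0.158 without DOX. In both cases these included 2iL exp1_1, 2iL exp2_1 and 2iL exp2_2, together with 96 h DOX exp1_1 and exp2_1 with DOX and 96 h no DOX exp1_1 and exp1_2 without DOX. With DOX its log2 fold change was -0.71 within experiment 1 and -1.80 within experiment 2, and without DOX it was -1.21 within experiment 1 and -0.74 within experiment 2, and neither passed within experiment 1.

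Of the 4 other amino acid synthesis genes, Asns fell. Asns, asparagine synthetase and a classic ATF4 target (its promoter is printed above), had 112, 169 and 129 CPM with DOX and 96.3, 71.2 and 76.7 CPM without DOX, against 182, 244, 322 and 349 CPM in 2iL. The 3 groups did not overlap, with no DOX lowest, DOX between and 2iL highest. Asns gave a log2 fold change of -1.75 ± 0.26 (SE; adjusted p = 3.62e-05) without DOX against 2iL, with -1.36 within experiment 1 (adjusted p = 0.0185) and -2.12 within experiment 2. With DOX against 2iL it was -1.01 ± 0.25 (SE; adjusted p = 0.00760), and -1.19 (adjusted p = 0.00225) without 96 h DOX exp1_2; it was -0.597 within experiment 1 and -1.37 within experiment 2. The difference of DOX from no DOX was 0.74 ± 0.26 (SE; adjusted p = 0.155), which did not pass, and was 0.57 (adjusted p = 0.356) without that library.

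Gpt2, the mitochondrial alanine transaminase, had 47.1, 36.1 and 72.2 CPM with DOX and 63.1, 40.97 and 163 CPM without DOX, against 92.2, 50.3, 81.7 and 76.2 CPM in 2iL, with 96 h no DOX exp2_2 far above the rest. Aldh18a1 and Pycr1 both make proline. Aldh18a1 ranged over 6.65 to 17.7 CPM with DOX, 3.23 to 15.6 CPM without DOX and 7.02 to 11.4 CPM in 2iL, and Pycr1 over 13.1 to 24.3 CPM with DOX, 11.2 to 15.3 CPM without DOX and 11.8 to 18.7 CPM in 2iL. None of the 3 passed in any comparison. The 3′ end of Pycr1 has matches in 74 other annotated genes.

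**Figure D3:**
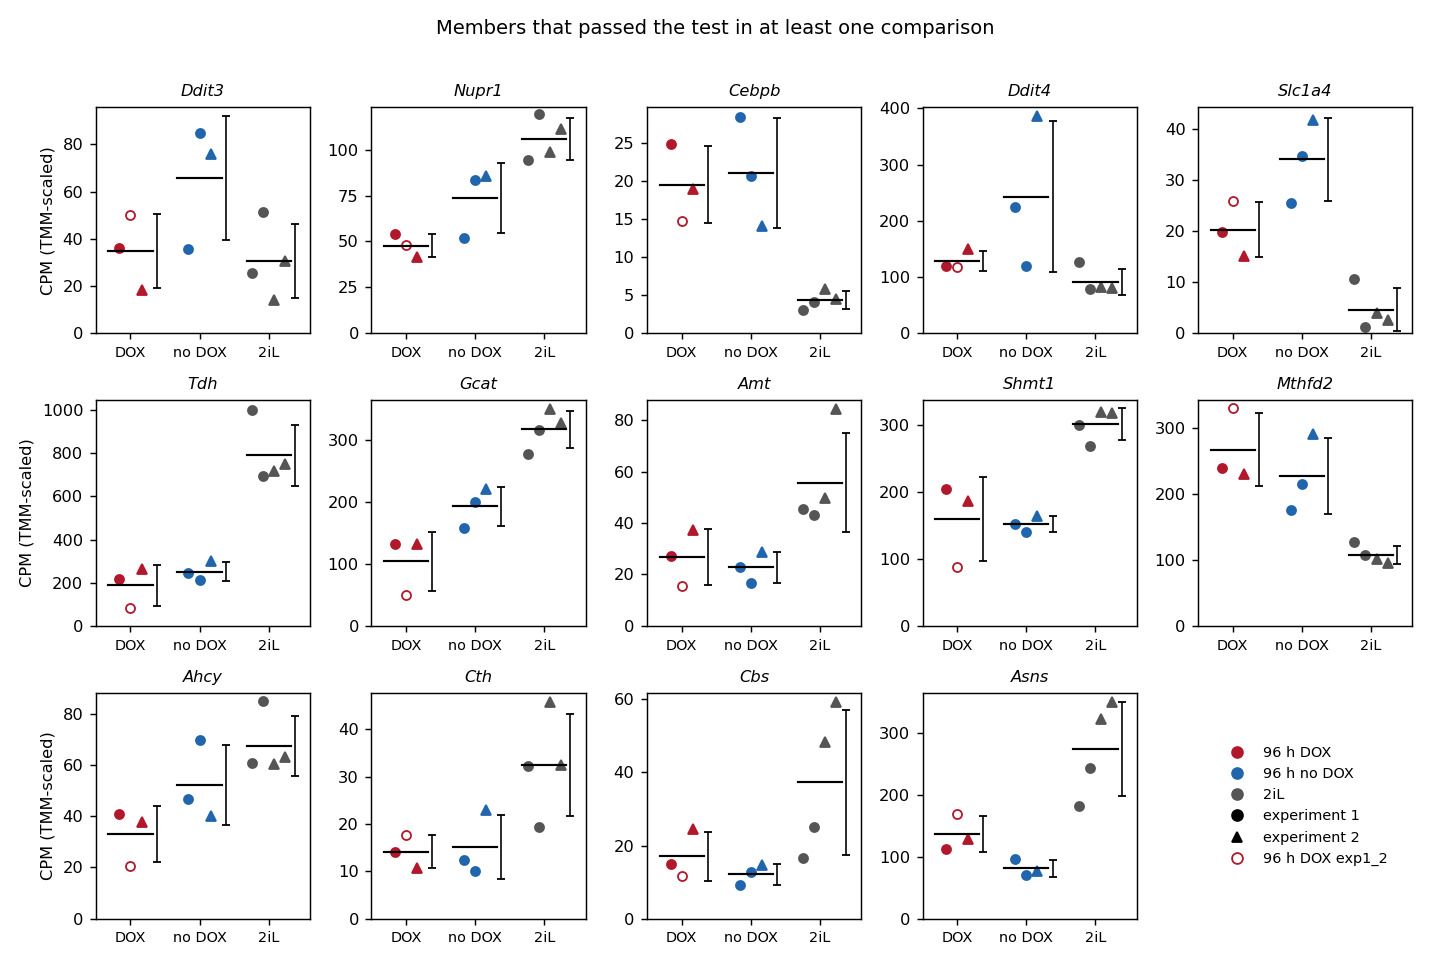
CPM of the 14 genes called in at least 1 comparison, by library (96 h DOX, 96 h no DOX, 2iL from left to right), with group means (lines) and SD (bars beside them). Circles are experiment 1, triangles experiment 2, and the open circle is 96 h DOX exp1_2. Gcat and Asns are highest in 2iL, and their DOX and no DOX libraries stand in opposite order. Neither gene was called with DOX against no DOX.

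With DOX against no DOX, Gcat and Mthfd1l were lower and Asns higher in every DOX library than in any no DOX library. The groups overlapped for the other 33 genes. The differences of Gcat, Mthfd1l and Asns did not pass, and the share of all genes tested that separate in this way was not computed. The separation is therefore not shown to be particular to them. The intervals show what these libraries could not resolve. For Atf4 the interval of the log2 difference was -0.71 to 0.34, for Mthfd2 -0.27 to 0.73, and for the low-count genes Chac1 and Slc7a11 -1.65 to 1.78 and -1.84 to 1.46. The genes with an unadjusted p below 0.05 were Gcat, Ddit4, Asns, Nupr1, Ddit3 and Ahcy, with log2 fold changes of -0.87, -0.91, 0.74, -0.63, -0.95 and -0.63. The sums of extraembryonic endoderm, neural, formative and naive markers given above differed between DOX and no DOX libraries without overlap, and their part in these values and in those against 2iL was not tested.

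The library 96 h no DOX exp2_2 was the highest of its group for 23 of the 36 genes (63.9%), beside 34.7% of all genes tested. Ddit4, Trib3, Chac1, Gpt2, Mthfd1l, Slc7a5, Slc1a4 and Phgdh had their highest value of all 10 libraries in it. The share of all genes tested that peak there over all 10 libraries was not computed. Such peaks are therefore not shown to be particular to the 36. The library 96 h DOX exp1_2 was the lowest of its group for 20 of the 36 genes (55.6%), beside 41.1% of all genes tested.

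Other genes of the same pathways were counted by list. The lists too were chosen with earlier results of these data known, so their shares are no independent finding either. Shares called and medians are given with DOX and then without DOX, both against 2iL, and over all genes tested they were 16.7% and 20.4% called, with medians of 0.02 and 0.00. With DOX against no DOX, 3.10% of all genes tested were called. In that comparison 0 genes passed on the lists of eIF2, endoplasmic reticulum stress and aminoacyl-tRNA synthetase genes. The same held for the lists of purine synthesis, of methionine, polyamine and glutathione, and of other amino acid enzyme genes. Of 23 tested ATF4 and integrated stress response targets outside the 36, 3 were called higher and 1 lower with DOX against 2iL, and 4 higher and 2 lower without DOX against 2iL; these were 17.4% and 26.1% of the list, and its median log2 fold changes were 0.20 and 0.14. Without 96 h DOX exp1_2 the counts with DOX were 3 higher and 2 lower, and without 2iL exp1_1 they were 2 higher and 0 lower. Rab39b, a small GTPase, was called higher in both and had 7, 9 and 14 reads with DOX and 17, 5 and 12 reads without DOX, against 0, 1, 0 and 1 in 2iL. Its call with DOX held without 96 h DOX exp1_2 (adjusted p = 0.0445), and its call without DOX was lost on leaving out 96 h no DOX exp1_1 (adjusted p = 0.0760). The glycine transporter Slc6a9 averaged 7.68 ± 0.694 CPM without DOX and 1.19 ± 0.665 CPM in 2iL (log2 fold change 2.64 ± 0.61 (SE), adjusted p = 0.00364). Slc7a1, a cationic amino acid transporter, fell, averaging 46.1 ± 7.17 CPM without DOX and 98.9 ± 15.99 CPM in 2iL (log2 fold change -1.10 ± 0.26 (SE), adjusted p = 0.00402). With DOX against no DOX the single target called (4.35% of the list) was Ddr2, a collagen receptor. Ddr2 had 2, 49 and 17 reads with DOX against 0, 4 and 0 without DOX. It did not pass without 96 h DOX exp1_2 (adjusted p = 0.380), nor without 96 h no DOX exp1_1 or exp2_2, and the count was then 0.

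Upstream of ATF4, among 16 genes for eIF2, its kinases, phosphatase and exchange factor, 4 were called lower and 0 higher with DOX against 2iL, and 2 lower and 0 higher without DOX against 2iL; these were 25% and 12.5% of the list, and its median log2 fold changes were -0.19 and -0.13. With DOX the counts were 4 lower and 1 higher (Ppp1r15a, the inducible phosphatase subunit) without 96 h DOX exp1_2, and 2 lower and 0 higher without 96 h DOX exp2_1. Eif2b4, a subunit of the exchange factor eIF2B, averaged 79.5 ± 4.89 CPM without DOX and 187 ± 18.9 CPM in 2iL (log2 fold change -1.23 ± 0.20 (SE), adjusted p = 1.54e-04). Eif2s2, the beta subunit of eIF2, averaged 2764 ± 279 CPM without DOX and 5730.5 ± 284 CPM in 2iL (log2 fold change -1.05 ± 0.26 (SE), adjusted p = 0.00527). Of the kinases, Eif2ak2 (PKR) was called lower with DOX, averaging 7.89 ± 2.11 CPM with DOX and 20.6 ± 3.06 CPM in 2iL (log2 fold change -1.42 ± 0.41 (SE), adjusted p = 0.0192). The call held without 96 h DOX exp1_2 (adjusted p = 0.0185) and was lost without 96 h DOX exp1_1 (adjusted p = 0.0777) and without 96 h DOX exp2_1. Of 16 endoplasmic reticulum stress genes, 2 were higher with DOX against 2iL and 1 without DOX; these were 12.5% and 6.25% of the list, and its median log2 fold changes were 0.13 and -0.06. Dnajc3, an inhibitor of eIF2 kinases, averaged 61.9 ± 29.2 CPM with DOX and 18.4 ± 4.30 CPM in 2iL (log2 fold change 1.72 ± 0.31 (SE), adjusted p = 5.18e-04). Without 96 h DOX exp1_2, and likewise without 2iL exp1_2 or exp2_2, the count with DOX was 1, and the log2 fold change of Dnajc3 without that DOX library was 1.29 (adjusted p = 0.00432). Dnajc3 was also the gene called without DOX, and that call was lost on leaving out any no DOX library or any 2iL library but exp1_1 (adjusted p up to 0.114). Of 20 cytosolic aminoacyl-tRNA synthetases, 1 was called lower in each comparison with 2iL, the glutaminyl-tRNA synthetase Qars; these were 5% and 5% of the list, and its median log2 fold changes were -0.07 and -0.07. Without DOX the count was 2 on leaving out 2iL exp1_1 or 96 h DOX exp1_2. With DOX the call of Qars held without 96 h DOX exp1_2 (adjusted p = 0.0260) and was lost on leaving out any of 6 other libraries (adjusted p up to 0.129 without 2iL exp2_1). They were 2iL exp1_2, exp2_1 and exp2_2, 96 h no DOX exp1_1, and 96 h DOX exp1_1 and exp2_1.

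Among 16 other folate genes tested, 1 was higher and 0 lower with DOX against 2iL, and 5 were lower and 0 higher without DOX against 2iL; these were 6.25% and 31.2% of the list, and its median log2 fold changes were -0.18 and -0.25. The 5 became 2, Ggh and Aldh1l1, without 96 h no DOX exp1_2, and 3 without 96 h no DOX exp1_1 or 2iL exp1_1. Ggh, which trims folate polyglutamates, averaged 1.28 ± 0.957 CPM without DOX and 9.78 ± 5.36 CPM in 2iL (log2 fold change -2.84 ± 0.68 (SE), adjusted p = 0.00439). Aldh1l1, the cytosolic enzyme that oxidises formyl-folate, averaged 4.66 ± 0.738 CPM without DOX and 17.2 ± 3.28 CPM in 2iL (log2 fold change -1.87 ± 0.37 (SE), adjusted p = 8.72e-04). With DOX against no DOX 2 of these genes were higher (12.5% of the list, beside 3.10% of all genes tested). Aldh1l1 averaged 21.8 ± 0.894 CPM with DOX and 4.66 ± 0.738 CPM without DOX (log2 fold change 2.21 ± 0.39 (SE), adjusted p = 0.00219), and 2.18 (adjusted p = 0.00488) was its log2 fold change without 96 h DOX exp1_2. The folate receptor gene Folr1 averaged 31.8 ± 16.2 CPM with DOX and 9.71 ± 1.61 CPM without DOX (log2 fold change 1.74 ± 0.38 (SE), adjusted p = 0.0131), and its log2 fold change was 1.99 (adjusted p = 0.00367) without that library. The call of Folr1 was lost without 96 h DOX exp2_1 (adjusted p = 0.111), 96 h no DOX exp1_1 or 96 h no DOX exp1_2. Mthfd2l was the 1 folate gene called with DOX against 2iL, and that call was lost on leaving out any of 8 libraries, 96 h DOX exp1_2 among them (adjusted p = 0.0638). Of 12 purine synthesis genes, 1 was higher and 2 lower with DOX against 2iL, 1 higher and 0 lower without DOX, and Prps2, which makes the ribose donor, was the higher one in both; these were 25% and 8.33% of the list, and its median log2 fold changes were -0.20 and 0.06. With DOX Prps2 held without 96 h DOX exp1_2 (adjusted p = 0.00785). The 2 lower calls with DOX, Impdh2 and Prps1, were lost without that library and likewise without 2iL exp1_1, exp2_1 or exp2_2. Without that DOX library the counts without DOX were 1 higher and 2 lower.

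Of 16 other amino acid transporters tested, 6 were higher and 0 lower with DOX against 2iL, and 7 higher and 3 lower without DOX; these were 37.5% and 62.5% of the list, and its median log2 fold changes were 0.73 and 0.76. Without 96 h DOX exp1_2 the counts with DOX were 6 higher and 2 lower, the 2 being Slc7a1 and Slc6a6. Slc6a9, Slc7a1 and Slc38a2 stand on this list and on that of ATF4 targets. Slc1a3, a glutamate transporter of the same family as Slc1a4, averaged 35.9 ± 3.62 CPM with DOX and 0.667 ± 0.332 CPM in 2iL (log2 fold change 5.71 ± 0.44 (SE), adjusted p = 6.06e-08), and its log2 fold change was 5.65 (adjusted p = 2.99e-08) without 96 h DOX exp1_2. In the other comparison with 2iL it averaged 23.5 ± 3.66 CPM without DOX and 0.667 ± 0.332 CPM in 2iL (log2 fold change 5.10 ± 0.44 (SE), adjusted p = 6.05e-08). Slc43a1, a carrier of large neutral amino acids, averaged 15.02 ± 4.12 CPM without DOX and 1.66 ± 1.21 CPM in 2iL (log2 fold change 3.17 ± 0.61 (SE), adjusted p = 6.76e-04). Slc38a4 and the taurine transporter Slc6a6 were the lower ones by size without DOX, with log2 fold changes of -1.78 and -1.71. Both were among the 3 called higher with DOX against no DOX (18.8% of the list, beside 3.10% of all genes tested). Slc38a4 averaged 77.6 ± 25.2 CPM with DOX and 27.1 ± 2.08 CPM without DOX (log2 fold change 1.52 ± 0.39 (SE), adjusted p = 0.0369), and its log2 fold change was 1.71 (adjusted p = 0.0193) without 96 h DOX exp1_2. That call was lost on leaving out any no DOX library or either other DOX library (adjusted p up to 0.148 without 96 h no DOX exp1_1). The other 2, Slc6a6 and Slc7a7, did not pass without 96 h DOX exp1_2 (adjusted p = 0.0685 and 0.141). The count of 3 became 0 without 96 h no DOX exp1_1 and 1 without any other 96 h library.

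Of 16 further methionine, polyamine and glutathione genes, 3 were lower and 0 higher with DOX against 2iL, and 4 lower and 2 higher without DOX; these were 18.8% and 37.5% of the list, and its median log2 fold changes were 0.21 and -0.03. Without 96 h DOX exp1_2 the counts were 4 lower with DOX against 2iL and, with DOX against no DOX, 1 higher (Ggt1, which breaks down glutathione outside cells). The 3 with DOX became 1 without 2iL exp2_1, and the 6 without DOX became 2 or 3 on leaving out 2iL exp2_1, 2iL exp2_2, 96 h no DOX exp1_1 or 96 h no DOX exp1_2. Gss, glutathione synthetase, averaged 13.5 ± 7.58 CPM with DOX and 156 ± 14.1 CPM in 2iL (log2 fold change -3.43 ± 0.32 (SE), adjusted p = 3.83e-07), and its log2 fold change was -3.14 (adjusted p = 4.62e-08) without 96 h DOX exp1_2. In the other comparison with 2iL Gss averaged 20.5 ± 2.86 CPM without DOX and 156 ± 14.1 CPM in 2iL (log2 fold change -2.92 ± 0.30 (SE), adjusted p = 6.05e-07). Bhmt, a homocysteine methyltransferase, was called lower in both and had 1, 0 and 0 reads with DOX and 0, 1 and 2 reads without DOX, against 16, 6, 18 and 16 in 2iL. Its call with DOX held without 96 h DOX exp1_2 (adjusted p = 0.0347), and its call without DOX was lost without 96 h no DOX exp1_1 or exp1_2. Of 18 other amino acid enzymes, 3 were lower and 0 higher with DOX against 2iL, and 5 lower and 0 higher without DOX; these were 16.7% and 27.8% of the list, and its median log2 fold changes were -0.14 and -0.27. The 5 became 3 without 96 h no DOX exp1_1 or exp2_2. Ass1, argininosuccinate synthase, averaged 119 ± 65.3 CPM with DOX and 323 ± 54.7 CPM in 2iL (log2 fold change -1.42 ± 0.31 (SE), adjusted p = 0.00316), and its log2 fold change was -1.05 (adjusted p = 0.00154) without 96 h DOX exp1_2. Bcat1, the cytosolic branched-chain transaminase, averaged 124 ± 15.3 CPM without DOX and 364 ± 67.7 CPM in 2iL (log2 fold change -1.55 ± 0.22 (SE), adjusted p = 2.79e-05).

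**Figure D4:**
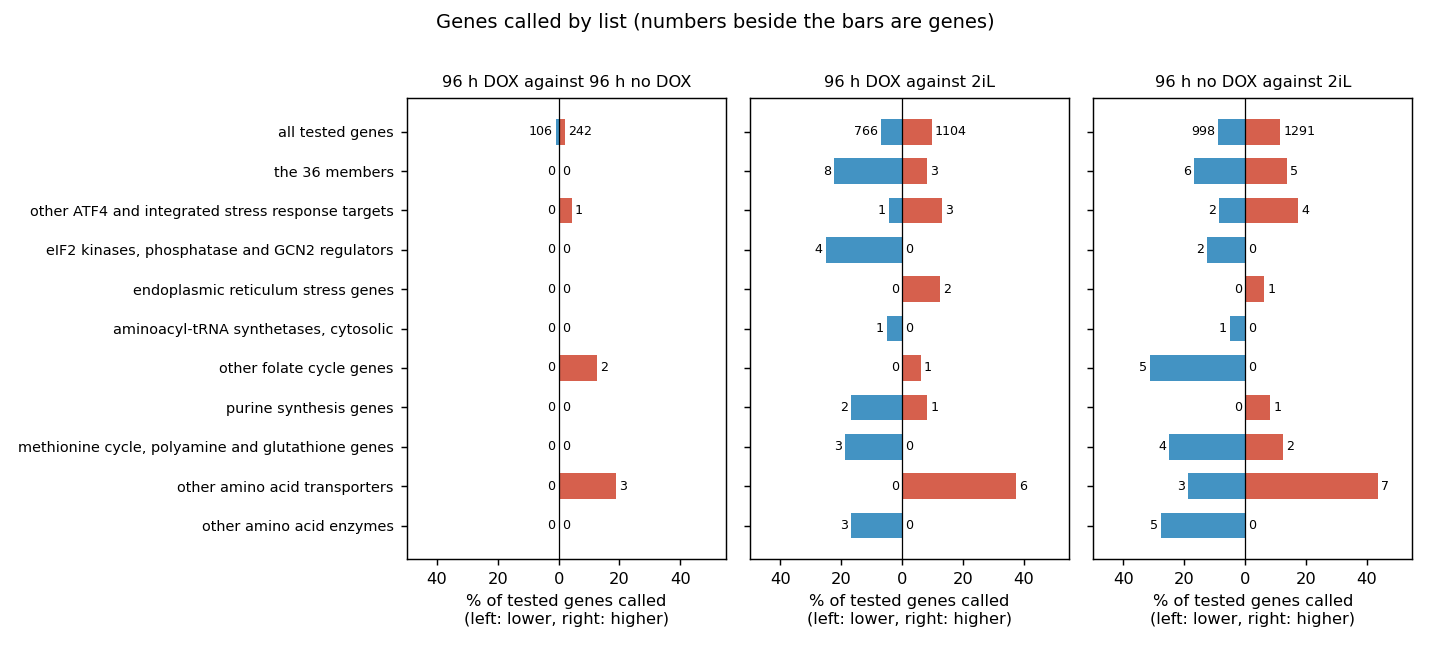
Bars give the percentage of tested genes called lower (blue, left) and higher (red, right) in each list, one panel per comparison, with the number of genes beside each bar. The 36 genes have no bar for DOX against no DOX, and the transporters reach 7 higher genes without DOX against 2iL.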

How the data were processed

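Poly(A) RNA of 10 libraries was profiled as 3′ DGE RNA-seq, per the labels' protocols. The authors deposited raw read counts per gene for each library. Reads were handled with bcl2fastq, STAR 2.6.0a and HTSeq on mm10, per the submitters' processing notes. The summary lines that HTSeq adds, 62.7% to 68.4% of all lines' counts, were left out. The authors' CPM table was not used. Counts were fitted over all 10 libraries with edgeR 4.0.16 in R 4.3.3 (TMM scaling, filterByExpr with a minimum count of 10, quasi-likelihood test, Benjamini-Hochberg adjustment over 11215 genes, threshold 0.05), and the fit was tested on simulated data. Standard errors were derived as the absolute log2 fold change divided by the square root of the F statistic of that test. The 95% intervals were built from them with the t distribution. Values within experiment 2, with 1 library in each 96 h group, are differences of mean log2(CPM + 0.5) with no test. Alternatives were other scalings, no filter, DESeq2 1.42.0, limma-voom 3.58.1, the 2 groups alone, replicate blocks, experiment 1 alone and each library left out. Overlap with other genes was read from GENCODE vM21, and near-identical copies from matches of at least 50 bases at 95% identity to the last 300 bases of a transcript. Of the genes described, 7 overlap another annotated gene on the same strand and 14 on the opposite strand. Those on the opposite strand include the called genes Tdh and Ahcy. Libraries of 1 group differed by more than sampling noise. The genes described and the lists were chosen with earlier results of these data known. Genes called in any comparison are described with every library's value, and from each list up to 2 called genes per direction and comparison with the largest fold change may be named.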

Additional observations from a re-analysis of the deposited data

Results flagged for a closer look

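In 2iL, the group with 4 libraries, 5 of the 36 genes had 1 library far from the other 3, by a gap above Dixon's critical share of the range of the 4 values. For 4 independent, normally distributed values, chance alone gives about 1 such gene in 20. The rule was applied to the 36 genes only, so the share over all genes tested is not known. The 5 are therefore not shown to be particular to the 36. Ddit4 was 126.6 CPM in 2iL exp1_1 and 78.7 to 81.4 CPM in the other 2iL libraries. Psph was 21.1 CPM in 2iL exp2_2, where the others had 28.3 to 29.6 CPM. Amt was 84.3 CPM in 2iL exp2_2, where the others had 43.3 to 49.8 CPM. Eif4ebp1 was 248 CPM in 2iL exp1_2, where the others had 302 to 313 CPM. Ahcy was 84.8 CPM in 2iL exp1_2, where the others had 60.5 to 63.2 CPM. The calls of Amt and Ahcy with DOX against 2iL are among those lost when 1 of the 2iL libraries was left out.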

How the results depend on the processing

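No called gene of the 36 changed direction under any alternative. Within experiment 1 alone, with 2 libraries a group, 4 of the 36 genes were called without DOX against 2iL (1226 of all genes) and 4 with DOX against 2iL (926 of all genes), all 11 genes of each comparison keeping their sign. With DOX against no DOX, dropping the filter on low counts called 564 genes and 2 of the 36, Ddit4 and Gcat, both lower; DESeq2 called 563, the fit of the 2 groups alone 212, experiment 1 alone 108, and a replicate block of experiment with library number 159. Leaving out 1 library at a time gave 161 to 358 genes there (161 without 96 h no DOX exp1_1, 181 without exp2_2), and 0 to 1 of the 36 (Ddit4, without 96 h no DOX exp1_2). With DOX against 2iL that range was 9 to 11 of the 36, and without DOX against 2iL 9 to 13. Libraries of the same number but another group correlated at -0.0953 to 0.205 in their deviations from the group means over 8 pairs, so the numbers were not taken as pairs; the block lost the calls of Cth in both comparisons with 2iL and of Amt with DOX, and called Vldlr with DOX against 2iL. Without TMM the median of all genes with DOX against 2iL was 0.17 in place of 0.02 on the log2 scale, and Amt and Cth were not called while Slc3a2 was. The cause of these changes was not tested. Over single genes, 43 results lost and 18 gained a call. Depth limits the low-count genes Atf3, Chac1, Slc7a11 and Vldlr.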

Other observations

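Whether the change without DOX against 2iL differed between the experiments was tested for all genes, a test chosen after the values had been seen. By edgeR's quasi-likelihood test 1 of the 11215 genes was called, and 0 of the 36 described here. The 6 of the 36 with an unadjusted p below 0.05 were all more positive in experiment 2. The share of all genes below that p, and their direction, was not computed, so these 6 cannot be read as a trait of the 36. The log2 difference between the experiments was 5.19 for Chac1 (adjusted p = 0.299), 1.98 for Trib3 (adjusted p = 0.419) and 1.52 for Ddit4 (adjusted p = 0.536). It was 1.18 for Slc7a3 and 0.96 for Mthfd1l, and Gpt2 lay between Ddit4 and Slc7a3. Experiment 2 holds 1 library without DOX, exp2_2, which the test assumes to vary like the other libraries, so the low number of calls says little, and the experiment and that library cannot be told apart. Chac1 had 1 read in 2iL exp2_2, and its difference rests partly on that count.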
